A study of Mus musculus with 32 samples.

Results

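Expression of 10 genes of TGF-beta signalling was followed through 3 RNA-seq experiments on the spinal cord of mice that carry the SOD1G93A transgene, a mutant human SOD1 gene that causes motor neuron disease. The genes were chosen by name, as Tgfb1, Tgfbr1, Tgfbr2, Smad2, Smad3, Smad4, Smad7, Ski, Nrros and Ltbp3, and were found by their Ensembl identifiers. They are 10 of 74021 genes in the tables of LAG-3-sorted microglia and of spinal cord and 10 of 74016 genes in the table of microglia by stage. All 10 members passed the filter on low counts in each table, where 16508 (sorted microglia), 17702 (cord) and 18669 genes (microglia by stage) were tested, though Ltbp3 passed in microglia only through the groups in which it was high.

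In the first experiment, CD11b+/CD45int microglia of lumbar cord were divided by surface LAG-3, an inhibitory receptor of immune cells, into LAG-3-low and LAG-3-high fractions of P140 SOD1G93A mice (5 libraries each), beside microglia of WT mice without the transgene (4 libraries, with no age in the labels). In the second, microglia came from transgenic mice with intact (SOD1G93A/LAG-3+/+) or disrupted Lag3 (SOD1G93A/LAG-3-/-), taken at P120 and P140, with 3 libraries in each of these 4 groups. In the third, RNA of whole lumbar cord came from the same 2 genotypes at P140, again with 3 libraries each. Every group except WT therefore carried the transgene, and the LAG-3-/- comparisons had no WT control. The transgene came from B6.Cg-Tg(SOD1*G93A)1Gur/J mice, while the LAG-3-deficient line was B6.129S6(Cg)-Lag3tm1Doi/J, in which the gene is disrupted in every cell and not only in microglia. The number of animals in a library and whether LAG-3-low libraries shared animals with the LAG-3-high libraries of their number were not given in the sources used here, so p-values measure the spread between these libraries.

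Libraries held 9403475 to 49512632 counts. Lag3 lay at 0.0239 to 0.462 CPM (counts scaled to a common library size) in LAG-3-/- microglia against 24.5 to 62.9 CPM in LAG-3+/+ microglia, and at 5.50 to 5.72 against 43.4 to 74.5 CPM in the cord. Summed microglia markers were high in all microglial libraries, between 19170 and 47671 CPM. Markers of neutrophils were also present, at 5972 to 70511 CPM in WT, 22825 to 66376 CPM in LAG-3-low and 3.48 to 9.67 CPM in LAG-3-high libraries. In the libraries by stage they lay between 2.68 and 4616 CPM, with low and high libraries in both P140 groups. At P120 they separated the genotypes, at 1743 to 2576 CPM in SOD1G93A/LAG-3+/+ and 2.68 to 6.58 CPM in SOD1G93A/LAG-3-/- libraries. Over both sets of microglial libraries the summed markers reached at most 34.4 CPM for lymphocytes, 126 CPM for endothelial cells and pericytes, 220 CPM for astrocytes, 211 CPM for oligodendrocytes and 17.5 CPM for neurons. One library stood apart: replicate 1 of P140 SOD1G93A/LAG-3-/- microglia had 20260 genes with a count, against 18896 to 20489 in P140 SOD1G93A/LAG-3+/+ and 23459 and 23896 in the other libraries of its own group. The tests of the members that rest on this group are given with and without this library, apart from those under alternative settings.

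TGF-beta is secreted in a latent form, held in the matrix or at the cell surface until it is activated, and then brings together a type II and a type I receptor kinase, which phosphorylate SMAD proteins that enter the nucleus with a common partner. Microglia depend on this signal to acquire and keep their resting, homeostatic identity, and in the central nervous system they present latent TGF-beta to themselves and to neighbouring cells. Among the members, Tgfb1 encodes the ligand, Ltbp3 a matrix protein that binds its latent form, and Nrros the microglial anchor of latent TGF-beta1. Tgfbr1 and Tgfbr2 encode the type I and type II receptors, Smad2 and Smad3 the SMADs that the receptors phosphorylate, and Smad4 their common partner. Smad7 encodes an inhibitory SMAD and Ski a repressor that binds SMAD complexes.

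Per length of transcript, the order of the members' levels depended on the group. In P120 SOD1G93A/LAG-3+/+ microglia the level per kilobase of the canonical transcript was 269 ± 21.7 CPM per kb for Tgfbr1, 77.1 ± 8.87 for Tgfbr2 and 62.7 ± 10.5 for Nrros (SD, n = 3). Ski followed at 12.7 CPM per kb, Smad7 at 5.59, Smad3 at 4.75, Tgfb1 at 3.70, Smad4 at 0.755 and Ltbp3 at 0.326. Tgfbr2 and Nrros, neighbours in this order, did not differ beyond their spread by canonical transcript. By longest transcript they stood apart, at 76.4 ± 8.80 and 41.4 ± 6.91 CPM per kb. Smad2 could not be placed, at 30.8 CPM per kb by its canonical transcript and 5.28 by its longest. In P140 SOD1G93A/LAG-3+/+ microglia Nrros stood first, at 131 ± 12.5 CPM per kb, above Tgfbr1 at 65.1 ± 5.70 and Tgfbr2 at 16.2 ± 1.37 (SD, n = 3). Nrros and Tgfbr2 lay within their spread in LAG-3-low microglia, at 59.5 ± 8.26 and 52.0 ± 8.46 CPM per kb (SD, n = 5), where Tgfbr1 was at 166 ± 10.3. By longest transcript Nrros was there below Tgfbr2, at 39.3 ± 5.45 and 51.6 ± 8.39 CPM per kb. In SOD1G93A/LAG-3+/+ cord the order was different again: Ski stood at 23.5, Ltbp3 at 21.0 and Tgfbr1 at 20.4 CPM per kb, while Nrros had the lowest level, 2.35 CPM per kb. Microglia and cord were normalized separately and made with different kits, so these levels are ranked within a table only.

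Tgfbr1 (ENSMUSG00000007613) is found in GRCm39 on chromosome 4, plus strand, from 47353134 to 47414931, Tgfbr2 (ENSMUSG00000032440) on the minus strand of chromosome 9 from 115913361 to 116004800, and Nrros (ENSMUSG00000052384) on the minus strand of chromosome 16 from 31960320 to 31984521. Each of the 3 genes is overlapped on the opposite strand by annotated long noncoding RNA genes, and strand use in the counting was not given for the microglial libraries, so reads of both strands cannot be told apart there. Below are the 250 bases before each transcription start of these genes from RefSeq's annotation of the earlier build GRCm38.p6, in which the windows are chr4:47352972-47353221 and, for a second Tgfbr1 entry, chr4:47385966-47386215 on the plus strand, chr9:116175364-116175613 on the minus strand and chr16:32165595-32165844 on the minus strand. They are shown because levels of the receptor pair moved together across the stage libraries while Nrros moved the other way. Sequences run 5′ to 3′, and capitals mark CAGAC, the core bound by SMAD proteins, and GAGGAA, the core bound by the myeloid factor PU.1.
Tgfbr1, first entry: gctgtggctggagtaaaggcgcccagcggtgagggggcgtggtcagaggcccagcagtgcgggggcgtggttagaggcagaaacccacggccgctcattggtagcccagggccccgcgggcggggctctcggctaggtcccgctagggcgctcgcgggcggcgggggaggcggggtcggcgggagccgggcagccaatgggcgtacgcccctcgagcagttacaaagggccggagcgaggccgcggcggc
Tgfbr1, second entry: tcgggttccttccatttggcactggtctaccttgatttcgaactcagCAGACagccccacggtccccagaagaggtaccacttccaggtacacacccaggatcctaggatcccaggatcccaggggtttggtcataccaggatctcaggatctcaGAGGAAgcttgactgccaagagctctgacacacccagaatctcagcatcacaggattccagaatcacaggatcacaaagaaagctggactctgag
Tgfbr2: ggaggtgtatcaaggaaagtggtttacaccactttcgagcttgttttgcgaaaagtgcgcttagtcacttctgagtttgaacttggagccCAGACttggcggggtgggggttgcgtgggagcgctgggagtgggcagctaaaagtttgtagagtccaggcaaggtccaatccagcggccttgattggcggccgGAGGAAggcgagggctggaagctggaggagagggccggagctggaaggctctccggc
Nrros: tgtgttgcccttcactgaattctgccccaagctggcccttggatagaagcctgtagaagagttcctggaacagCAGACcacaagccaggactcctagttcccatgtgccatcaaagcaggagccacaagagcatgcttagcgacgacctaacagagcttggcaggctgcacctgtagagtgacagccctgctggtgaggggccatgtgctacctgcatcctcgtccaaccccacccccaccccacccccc
The SMAD core CAGAC, the PU.1 core GAGGAA, the AP-1 site TGACTCA and the palindrome GTCTAGAC were searched on both strands. The Tgfbr2 window held CAGAC at 156 to 160 bases and GAGGAA at 52 to 57 bases before the start, the Nrros window held CAGAC at 173 to 177 bases before the start, and of the Tgfbr1 windows the first held none of the 4 motifs while the second held CAGAC at 199 to 203 bases and GAGGAA at 90 to 95 bases before its start. Of 32851 windows of the same length in the mouse table, 42.2% held CAGAC, 23.3% GAGGAA, 4.46% TGACTCA and 0.167% GTCTAGAC. A match is a description of the letters only. An entry in the table was found for 7 of the 10 members (Smad2, Smad4 and Smad7 had none), and of the remaining 4, Ltbp3 held CAGAC at 54 to 58 bases before the start.

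Comparison of LAG-3-high with LAG-3-low microglia asked whether the members differed with surface LAG-3 within the diseased cord. Both receptors were higher in LAG-3-high microglia, Tgfbr1 by 1.61-fold and Tgfbr2 by 1.47-fold, and no other member passed the threshold. Tgfbr1 measured 927, 924, 1013, 940 and 1059 CPM in the 5 LAG-3-low libraries and 1569, 1717, 1544, 1546 and 1449 CPM in the 5 LAG-3-high libraries, so the groups did not overlap. The log2 fold change was 0.69 (SE 0.12, edgeR adjusted p = 0.00489). Tgfbr2 measured 384, 421, 461, 385 and 557 CPM in LAG-3-low and 669, 609, 632, 636 and 705 CPM in LAG-3-high libraries, also without overlap, with a log2 fold change of 0.56 (SE 0.14, adjusted p = 0.0418). The full rule asks for an adjusted p below 0.1 together with a log2 fold change beyond 1 in size. Under it 0 of 10 members were called in edgeR, beside 3.49% of all genes, and 0 in DESeq2, beside 5.98%. Without the minimum fold, 2 of 10 members were higher, beside 1.59% of all genes, and the same 2 were higher at an unadjusted p below 0.05, beside 5.27% of all genes, with 0 lower.

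**Figure D1:**
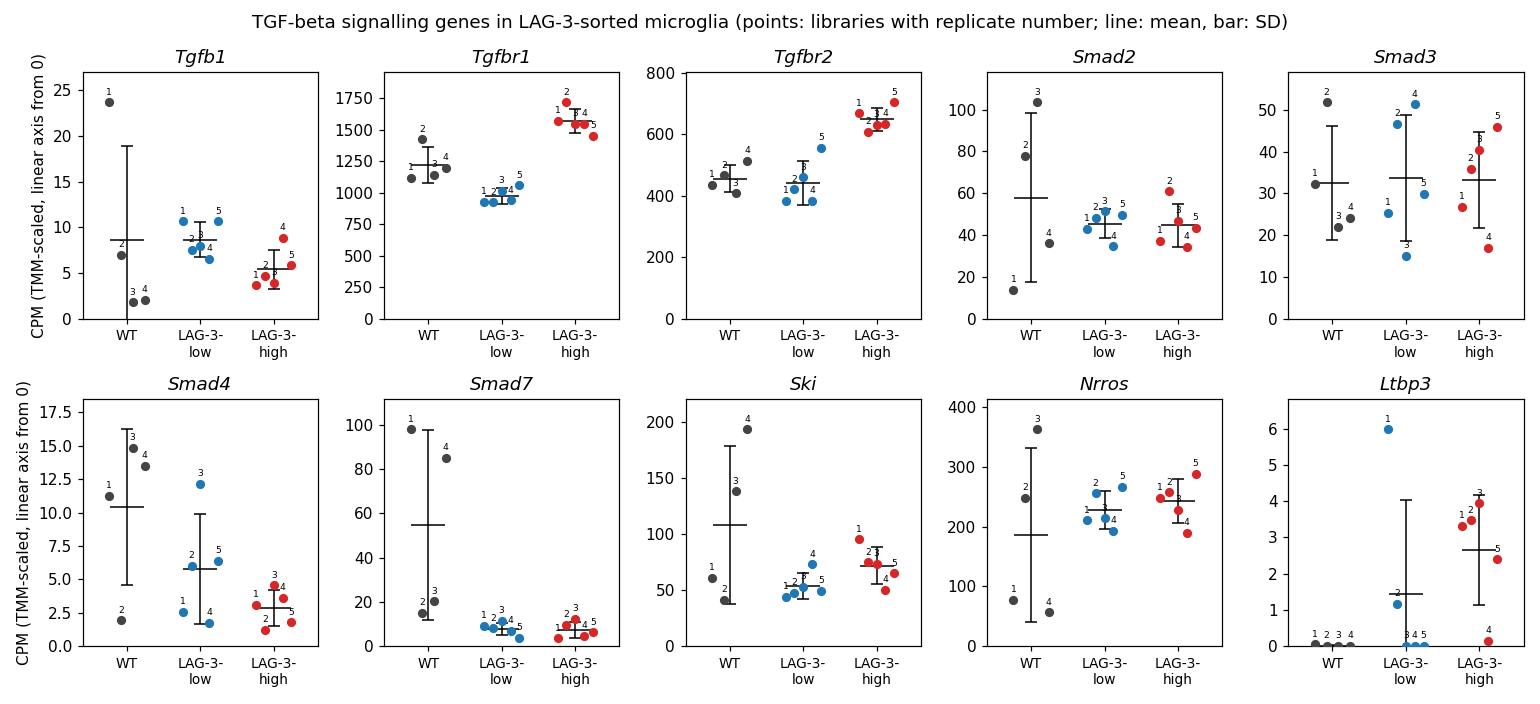
Level of each of the 10 members (CPM, linear axes from 0) in the libraries of WT, LAG-3-low and of LAG-3-high microglia. Points are libraries marked with their replicate number, lines are means and bars are SDs. Tgfbr1 and Tgfbr2 in LAG-3-high libraries lie above all LAG-3-low libraries, Smad7 has its highest values in WT, and Nrros spreads from 56.3 to 363 CPM within WT.

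The receptor difference depended on how libraries were scaled. Without TMM factors the log2 fold changes were 0.31 for Tgfbr1 (edgeR adjusted p = 0.350) and 0.18 for Tgfbr2 (adjusted p = 0.661), and with libraries scaled to their summed microglia markers they were 0.15 (adjusted p = 0.598) and 0.03 (adjusted p = 0.933). Under these scalings the median log2 fold change of all genes was -0.40 and -0.56, against -0.02 under TMM, and both receptors stood above it in each case. Neutrophil markers (10 of 10 lower in LAG-3-high by the called rule) and microglia markers (30348 to 33748 CPM in LAG-3-high against 19170 to 27344 CPM in LAG-3-low) moved with the same contrast. Monocyte markers did too, at 1809 to 5407 CPM in LAG-3-low, 393 to 990 CPM in LAG-3-high and 54.2 to 2804 CPM in WT libraries, as did border macrophage markers (162 to 374 against 83.2 to 158 CPM, low against high, with 2 of 7 called lower), astrocyte markers (50.5 to 73.4 against 126 to 147 CPM) and endothelial and pericyte markers (40.9 to 78.0 against 82.3 to 126 CPM). Among defining markers, Ly6c2, Vcan, Cd163 and Lyve1 were at 0 in every LAG-3-high library, and the part of these lists in the result was not tested. With the counts of the neutrophil markers taken out before scaling, the log2 fold change was 0.68 for Tgfbr1 (adjusted p = 0.00491) and 0.56 for Tgfbr2 (adjusted p = 0.0420). Tgfbr1 stayed past the threshold with each of the 10 libraries left out. Tgfbr2 did so in 5 of 10 cases and lost it without LAG-3-low replicate 1 (adjusted p = 0.117), 2 (0.112) or 4 (0.132) or LAG-3-high replicate 1 (0.111) or 5 (0.124), with a log2 fold change of 0.51 to 0.55. With replicate numbers as a block its adjusted p was 0.196.

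The other members did not separate the LAG-3 fractions. Nrros lay between 193 and 267 CPM in LAG-3-low and between 189 and 288 CPM in LAG-3-high libraries. Tgfb1, the ligand, measured 10.7, 7.51, 7.95, 6.54 and 10.7 CPM in LAG-3-low and 3.66, 4.67, 3.94, 8.87 and 5.85 CPM in LAG-3-high libraries, with overlap and an edgeR adjusted p of 0.839. Ski, the SMAD repressor, ranged from 44.1 to 72.9 CPM against 50.2 to 95.4 CPM, and Smad2 from 34.7 to 51.3 CPM against 34.5 to 60.9 CPM. Smad3 spread from 15.0 to 51.3 CPM in LAG-3-low libraries, and Smad4 was low in both fractions, at 1.74 to 12.2 CPM and 1.20 to 4.56 CPM. Ltbp3 was near the detection limit, with 130, 17, 0, 0 and 0 counts in LAG-3-low and 59, 52, 64, 2 and 34 counts in LAG-3-high libraries.

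Against WT, both SOD1G93A fractions showed much lower Smad7, the inhibitory SMAD. Smad7 measured 98.0, 15.1, 20.3 and 85.3 CPM in the WT libraries, 9.15, 7.93, 11.3, 6.93 and 3.62 CPM in LAG-3-low libraries and 3.44, 9.68, 12.4, 4.47 and 6.27 CPM in LAG-3-high libraries. Every WT library was above every SOD1G93A library, and within WT replicates 1 and 4 were far above replicates 2 and 3. The log2 fold change was -2.81 for LAG-3-low (SE 0.62, edgeR adjusted p = 0.00820) and -2.91 for LAG-3-high (SE 0.62, adjusted p = 0.00502), and it kept an adjusted p below 0.1 with each library left out. With replicate numbers as a block the adjusted p was 0.303 and 0.296.

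Ski and Smad4 were also lower than in WT, with less stable calls. Ski measured 60.8, 41.2, 138 and 193 CPM in WT and 44.1, 47.8, 53.1, 72.9 and 49.4 CPM in LAG-3-low libraries, which overlapped (log2 fold change -1.02, SE 0.38, edgeR adjusted p = 0.0767). Its call was lost without WT replicate 3 (log2 fold change -0.87, adjusted p = 0.144) or 4 (-0.58, adjusted p = 0.261) or without LAG-3-low replicate 1, 2, 3 or 5 (-1.02 to -0.96, adjusted p = 0.129 to 0.143). Smad4 measured 11.3, 1.92, 14.9 and 13.5 CPM in WT against 1.20 to 4.56 CPM in LAG-3-high libraries, with WT replicate 2 inside the range of LAG-3-high (log2 fold change -1.86, SE 0.73, adjusted p = 0.0839). It was past the threshold in 2 of 9 cases with 1 library left out, the adjusted p lying between 0.0260 and 0.166. After offsets for length and GC content Ski was at -1.91 in LAG-3-low (edgeR adjusted p = 0.0126). In LAG-3-high it was at -1.67 (adjusted p = 0.0189), where it had not passed before (-0.60, adjusted p = 0.280), and Smad4 at -2.24 in LAG-3-high (adjusted p = 0.0488). With these offsets 2 members were called in LAG-3-low, beside 19.1% of all genes, and 4 in LAG-3-high microglia against WT, beside 24.3%.

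Ltbp3 passed the called rule against WT, where it had 1, 0, 0 and 0 counts, in LAG-3-low (edgeR adjusted p = 0.0688) and LAG-3-high microglia (adjusted p = 0.0396). No fold is given, since WT was at or under a floor of 3 counts in each library. Only 2 of 5 LAG-3-low and 4 of 5 LAG-3-high libraries were above that floor, and without them Ltbp3 would not have been tested, so nothing is read from these calls.

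By the called rule, 3 of 10 members differed between LAG-3-low and WT (Smad7, Ski and Ltbp3), beside 21.9% of all genes, and 3 of 10 between LAG-3-high and WT (Smad7, Smad4 and Ltbp3), beside 27.0% of all genes. Shares of this size are near the background, and Ltbp3 adds to each count only through the filter described above. Without the minimum fold the counts were 4 of 10 beside 24.9%, and 5 of 10 beside 30.3%. The members added were the receptors: Tgfbr1 was lower in LAG-3-low than in WT (log2 fold change -0.33, SE 0.12, edgeR adjusted p = 0.0846) and higher in LAG-3-high (0.36, SE 0.13, adjusted p = 0.0539). Tgfbr1 in WT was 1115, 1422, 1142 and 1199 CPM, above every LAG-3-low library and below every LAG-3-high library. Tgfbr2 in WT was 436, 467, 409 and 514 CPM, below every LAG-3-high library (log2 fold change 0.51, SE 0.15, adjusted p = 0.0254), and overlapped with LAG-3-low. Scaled to microglia markers, Tgfbr1 in LAG-3-low changed sign to 0.29 above WT (adjusted p = 0.141), a scaling under which the median of all genes was 0.67, against 0.04 under TMM. Without TMM factors the differences of LAG-3-high from WT were 0.05 for Tgfbr1 (adjusted p = 0.844) and 0.22 for Tgfbr2 (adjusted p = 0.320), and after offsets for length and GC content 0.19 (adjusted p = 0.282) and 0.16 (adjusted p = 0.513). Both SOD1G93A fractions were set against the same WT libraries.

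Comparison of the stages in SOD1G93A/LAG-3+/+ microglia gave the most calls among the members of all comparisons in microglia. From P120 to P140 the ligand Tgfb1, both receptors, Smad7, Ski and Ltbp3 fell and Nrros rose, 7 of 10 members in all, against 27.4% of all genes, with Ltbp3 tested only through the P120 libraries. Of the 10 members, 6 fell, against 15.5% of all genes, and 1 rose, against 11.9% of all genes. DESeq2 also called 7 members, beside 35.6% of all genes. The members' median log2 fold change was -1.23, beside -0.22 over all genes. The libraries of these stages also differed in genes with a count, 24136 to 24942 at P120 against 18896 to 20489 at P140. Their TMM factors were 1.06 to 1.16 at P120 and 0.734 to 0.855 at P140, and the part of these differences was not tested.

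Tgfbr1 measured 1642, 1653 and 1428 CPM at P120 and 365, 419 and 357 CPM at P140, a log2 fold change of -2.05 (SE 0.39, edgeR adjusted p = 0.00798). Tgfbr2 measured 636, 736 and 589 CPM at P120 and 133, 151 and 129 CPM at P140, with a log2 fold change of -2.25 (SE 0.36, adjusted p = 0.00562). Both receptors thus stood at 0.242 and 0.210 of their P120 level, with no overlap between stages and with the call held when any library was left out. Nrros went the other way, from 198, 245 and 278 CPM to 471, 481 and 558 CPM (log2 fold change 1.07, SE 0.25, adjusted p = 0.0161), again without overlap and with each library left out.

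Ski fell from 80.6, 85.4 and 63.3 CPM to 29.8, 44.0 and 35.0 CPM (log2 fold change -1.08, SE 0.26, edgeR adjusted p = 0.0159). Smad7 fell from 25.0, 22.8 and 27.7 CPM to 5.98, 7.62 and 15.3 CPM (log2 fold change -1.38, SE 0.45, adjusted p = 0.0519), and Tgfb1 from 7.38, 8.33 and 8.86 CPM to 0.914, 0.114 and 2.96 CPM (log2 fold change -2.61, SE 0.88, adjusted p = 0.0591). In each of these 3 genes all P140 libraries lay below all P120 libraries. The calls of Tgfb1 and Smad7 did not hold without P120 SOD1G93A/LAG-3+/+ replicate 1, 2 or 3 (adjusted p = 0.114, 0.127 and 0.131 for Tgfb1 and 0.118, 0.106 and 0.138 for Smad7) or without P140 replicate 1 (0.133 and 0.128), and that of Smad7 not without P140 replicate 2 (0.141). Ltbp3 had 112, 79 and 59 counts at P120 and 4, 0 and 5 counts at P140 (adjusted p = 0.0496). The intracellular SMADs Smad2, Smad3 and Smad4 did not pass the threshold (adjusted p = 0.658, 0.410 and 0.628), with Smad2 between 35.9 and 71.5 CPM over all 12 libraries.

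**Figure D2:**
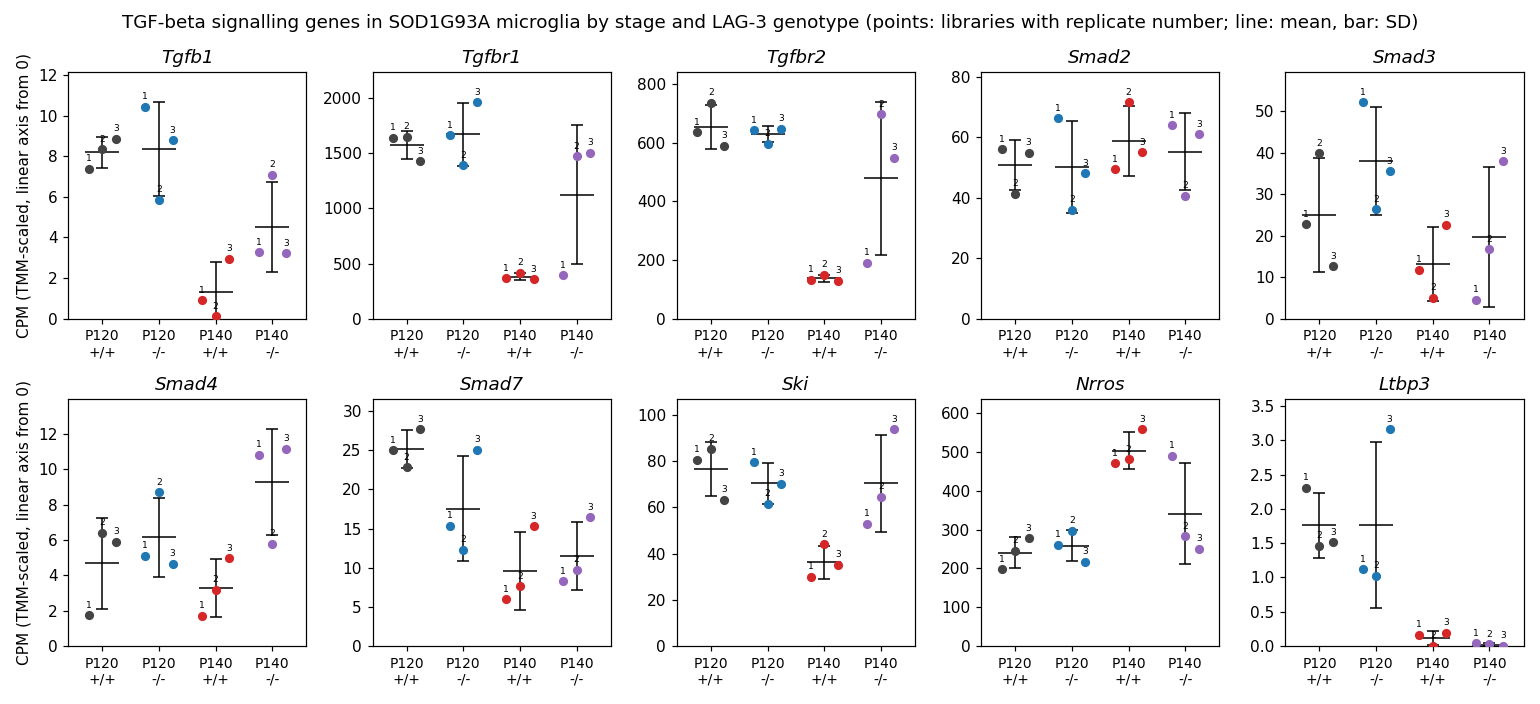
Level of each of the 10 members (CPM, linear axes from 0) in SOD1G93A/LAG-3+/+ and SOD1G93A/LAG-3-/- microglia at P120 and P140. Points are libraries marked with their replicate number, lines are means and bars are SDs (n = 3). Tgfbr1 and Tgfbr2 are low in all 3 P140 SOD1G93A/LAG-3+/+ libraries and in replicate 1 of P140 SOD1G93A/LAG-3-/-, and Nrros is high in the same 4 libraries.

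In SOD1G93A/LAG-3-/- microglia the same step from P120 to P140 gave no call, for 0 of 10 members in edgeR and 0.00% of all genes. DESeq2 called 1 member, Ltbp3, beside 2.41% of all genes. Ltbp3 was also the 1 member with an unadjusted p below 0.05 in edgeR, beside 8.88% of all genes. It had 48, 31 and 126 counts at P120 and 1, 1 and 0 counts at P140. Tgfbr1 measured 1662, 1392 and 1964 CPM at P120 and 395, 1473 and 1507 CPM at P140 (log2 fold change -0.57, SE 0.38, edgeR adjusted p = 0.738), and Tgfbr2 643, 597 and 648 CPM against 190.5, 696 and 548 CPM (-0.40, SE 0.35, adjusted p = 0.837). In both genes replicate 1 lay far below all other LAG-3-/- libraries while replicates 2 and 3 lay within or near the P120 range. Summed neutrophil markers were at 4.02, 847 and 4616 CPM in P140 replicates 1 to 3, against 2.68 to 6.58 CPM at P120, and their part was not tested. Without replicate 1 the log2 fold change was -0.17 for Tgfbr1 and -0.01 for Tgfbr2 (adjusted p = 1 for both in edgeR), 0 of 10 members were called beside 0.00488% of all genes, and the members' median was -0.09, against -0.48 with it.

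Between genotypes at P120, 0 of 10 members were called in edgeR, beside 0.0107% of all genes, and 0 in DESeq2, beside 0.718%. In edgeR 0 of 10 had an unadjusted p below 0.05, beside 2.95% of all genes. The receptors showed the overlap, with Tgfbr1 at 1428 to 1653 CPM in SOD1G93A/LAG-3+/+ and 1392 to 1964 CPM in SOD1G93A/LAG-3-/- microglia, and Tgfbr2 at 589 to 736 and 597 to 648 CPM. Nrros lay at 198 to 278 against 218 to 297 CPM, Tgfb1 at 7.38 to 8.86 against 5.87 to 10.4 CPM, and Smad7 at 22.8 to 27.7 against 12.3 to 25.1 CPM. Summed neutrophil markers did separate the genotypes at P120, at 1743 to 2576 CPM in LAG-3+/+ against 2.68 to 6.58 CPM in LAG-3-/- libraries, and their part was not tested.

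At P140, Tgfbr1, Tgfbr2 and Ski were higher in SOD1G93A/LAG-3-/- than in SOD1G93A/LAG-3+/+ microglia, 3 of 10 members beside 10.2% of all genes called in either direction and 7.22% called higher. Tgfbr2 differed by a log2 fold change of 1.80 (SE 0.36, edgeR adjusted p = 0.0311), Tgfbr1 by 1.56 (SE 0.39, adjusted p = 0.0521) and Ski by 0.96 (SE 0.26, adjusted p = 0.0611). For Tgfbr2 the 3 LAG-3-/- libraries, at 190.5, 696 and 548 CPM, were all above the LAG-3+/+ libraries, at 133, 151 and 129 CPM, whereas for Tgfbr1 replicate 1, at 395 CPM, lay below the highest LAG-3+/+ library, at 419 CPM. Ski stood at 52.8, 64.4 and 93.7 CPM against 29.8, 44.0 and 35.0 CPM, without overlap. Nrros stood at 491, 283 and 250 CPM against 471, 481 and 558 CPM and was not called (log2 fold change -0.56, SE 0.25, adjusted p = 0.203). DESeq2 called 5 members, these 4 and Smad4, beside 22.9% of all genes, with a log2 fold change of 1.41 for Smad4. Smad4 was at 10.8, 5.80 and 11.1 CPM in LAG-3-/- against 1.70 to 4.96 CPM in LAG-3+/+ libraries. The members' median log2 fold change was 0.77, beside 0.14 over all genes, and 1.09 beside 0.16 without replicate 1 of the LAG-3-/- group.

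These genotype differences at P140 rested on single libraries. Without replicate 1 of SOD1G93A/LAG-3-/-, 4 of 10 members were called in edgeR, beside 20.2% of all genes, with log2 fold changes of 1.97 for Tgfbr1 (adjusted p = 0.000158), 2.18 for Tgfbr2 (adjusted p = 0.000131), 1.13 for Ski (adjusted p = 0.0147) and -0.91 for Nrros (adjusted p = 0.0123). Without replicate 2 the count was 0, beside 0.470% of all genes, with 1.26 for Tgfbr1 (adjusted p = 0.201), 1.37 for Tgfbr2 (0.135) and 0.97 for Ski (0.180). Without replicate 3 the count was 0 again, beside 0.745% of all genes, with 1.30 for Tgfbr1 (0.184), 1.69 for Tgfbr2 (0.121) and 0.70 for Ski (0.221). Left-out LAG-3+/+ libraries also ended calls, of Tgfbr1 without replicate 2 or 3 (adjusted p = 0.121 and 0.129) and of Ski without replicate 1 or 3 (0.104 and 0.144). With replicate numbers as a block 1 member was called, beside 4.36% of all genes, and Tgfbr1 and Ski had adjusted p-values of 0.104 and 0.117.

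The test of the difference itself, the genotype-by-stage interaction, called 0 of 10 members in edgeR, beside 0.171% of all genes, and 3 of 10 had an unadjusted p below 0.05, beside 13.6% of all genes. The interaction was 1.85 for Tgfbr2 (SE 0.50, adjusted p = 0.185), 1.48 for Tgfbr1 (SE 0.54, adjusted p = 0.274), 1.07 for Ski (SE 0.36, adjusted p = 0.246) and -0.67 for Nrros (SE 0.36, adjusted p = 0.438). DESeq2 called 1 member, Tgfbr2, at 1.74 (adjusted p = 0.0240), beside 6.97% of all genes. Without replicate 1 of P140 SOD1G93A/LAG-3-/- edgeR called 4, beside 8.35% of all genes: Tgfbr1 at 1.89 (adjusted p = 0.00281), Tgfbr2 at 2.24 (0.00164), Ski at 1.25 (0.0656) and Nrros at -1.02 (0.0548).

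**Figure D3:**
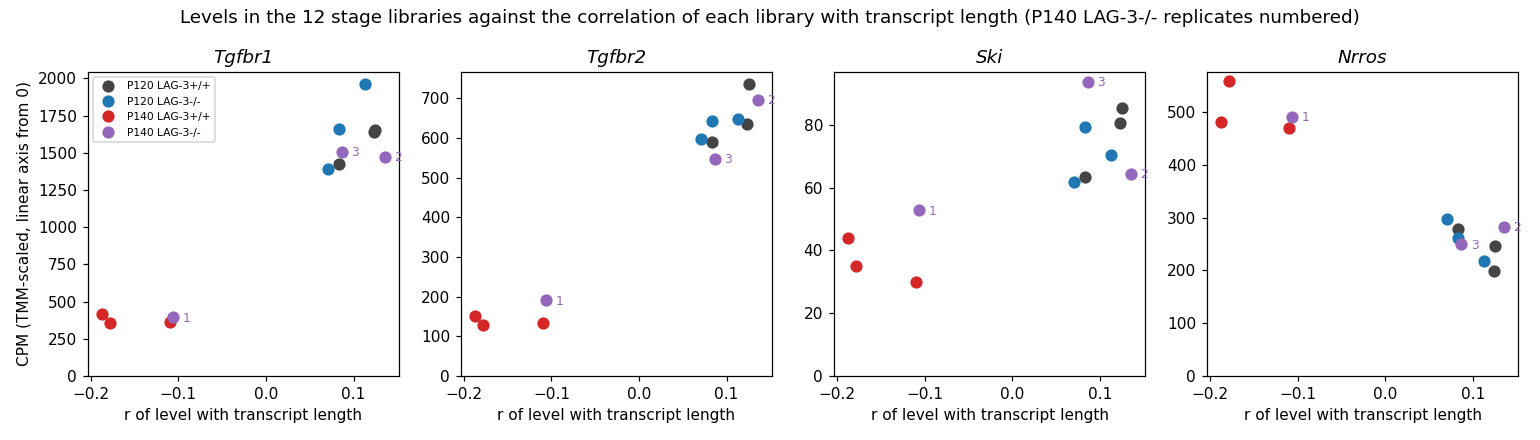
Level of Tgfbr1, Tgfbr2, Ski and Nrros (CPM) in each of the 12 stage libraries against that library's correlation with transcript length. The correlation is across genes, between log2 transcript length and log2 level as a deviation from the gene's mean over these libraries. Points are libraries coloured by group, with the P140 SOD1G93A/LAG-3-/- replicates numbered. Libraries with a negative correlation, the 3 P140 SOD1G93A/LAG-3+/+ libraries and replicate 1 of P140 SOD1G93A/LAG-3-/-, have the lowest receptor levels and the highest Nrros levels.

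The dependence of counts on transcript length moved with the same split. In each library, log2 level as a deviation from the gene's mean over all stage libraries was correlated with log2 transcript length. The sign is therefore relative to the other libraries. This correlation was -0.110, -0.187 and -0.178 in P140 SOD1G93A/LAG-3+/+, -0.106, 0.136 and 0.0871 in the 3 P140 SOD1G93A/LAG-3-/- libraries, and 0.0703 to 0.125 at P120. The canonical transcripts are 5844 bases for Tgfbr1, 8484 for Tgfbr2, 6016 for Ski and 3831 for Nrros. After offsets for length and GC content the change from P120 to P140 in LAG-3+/+ microglia was -1.39 for Tgfbr1 (edgeR adjusted p = 0.0205), -1.34 for Tgfbr2 (adjusted p = 0.0109), -2.44 for Tgfb1 (adjusted p = 0.0911) and 1.36 for Nrros (adjusted p = 0.0142). Ski was at -0.03 (adjusted p = 0.952) and Smad7 at -0.65 (adjusted p = 0.349) after the same correction. Between genotypes at P140 the corrected values were 1.05 for Tgfbr2 (adjusted p = 0.0599), 0.97 for Tgfbr1 (adjusted p = 0.129) and 0.23 for Ski (adjusted p = 0.665). Microglia markers summed to 39497 to 47671 CPM in P140 SOD1G93A/LAG-3+/+ libraries against 25692 to 32992 CPM at P120, and border macrophage markers to 118 to 171 CPM against 2.47 to 69.3 CPM. The part of these markers in the receptor changes was not tested. Neutrophil markers, at 3482, 667 and 3.84 CPM in P140 SOD1G93A/LAG-3+/+ and 4.02, 847 and 4616 CPM in P140 SOD1G93A/LAG-3-/-, differed within both groups, and their part was not tested. With their counts taken out before scaling, the genotype difference was 1.56 for Tgfbr1 (adjusted p = 0.0521) and 1.80 for Tgfbr2 (adjusted p = 0.0309).

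Across the 12 stage libraries, log2 levels of Tgfbr1 correlated with Tgfbr2 at r = 0.99, with Ski at 0.89 and with Nrros at -0.97, as a description of libraries that share the groups and the length dependence above. Across the 14 LAG-3-sorted libraries, r was 0.83 with Tgfbr2, 0.17 with Ski and 0.14 with Nrros. The receptor pair was thus the only one of these 3 whose levels ran together in both sets. Nrros in WT ran instead against Smad7: replicates 1 and 4 had 77.1 and 56.3 CPM of Nrros and the 2 highest Smad7 levels, replicates 2 and 3 had 248 and 363 CPM of Nrros and the 2 lowest, and r between the genes was -0.76 over the 14 libraries. Transcript length and level relative to the gene's mean over the 14 libraries correlated at -0.207, -0.00815, -0.0758 and -0.243 in WT replicates 1 to 4.

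Genes were ranked for likeness by the lower of the correlations over the 14 and the 12 libraries, among genes with a mean of at least 10 CPM in both. Nearest to Tgfbr1 among 8354 genes were Man1a2 (r = 0.88 and 0.88), Cyfip1 (0.84 and 0.90) and Tgfbr2 (0.83 and 0.99). Nearest to Tgfb1 among 8355 genes were Suz12 (0.82 and 0.92), Ppm1l (0.80 and 0.90) and Elk4 (0.77 and 0.85). Tgfbr2 was thus among the 3 genes nearest to Tgfbr1, and none of the other members was among those of Tgfb1. Smad4 and Ltbp3 were below the limit of 10 CPM and could not be named. Tgfb1 was below this limit as well and was kept only as the gene asked about, so these lists are not set against each other.

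Further genes of the pathway, 64 in 6 lists of ligands and latency genes, receptors, mediators, inhibitors, immediate targets and TGF-beta-dependent microglial genes, gave the setting of the members. Against WT, TGF-beta-dependent microglial genes were lower in both fractions, 7 of 11 tested each time, and immediate targets were higher, 4 of 7 tested each time, beside 21.9% (LAG-3-low) and 27.0% (LAG-3-high) of all genes called in either direction. Cell markers moved in the same contrasts. Summed microglia markers were 19170 to 27344 CPM in LAG-3-low against 31139 to 38526 CPM in WT, and 30348 to 33748 CPM in LAG-3-high, which overlapped with WT. Of 10 microglia markers 5 were called lower in each fraction, and 1 was called higher in LAG-3-high. In LAG-3-low 3 of 7 monocyte and 4 of 10 neutrophil markers were called higher. In LAG-3-high 5 of 7 monocyte, 4 of 7 border macrophage and 9 of 10 neutrophil markers were called lower, and 1 monocyte marker higher. P2ry12, Tmem119 and Sall1 belong to the microglia markers as well, and the part of the cell types in these counts was not tested. P2ry12, the purinergic receptor of resting microglia, averaged 5930 ± 1034 CPM over the WT libraries (SD, n = 4), 1427 ± 531 CPM over LAG-3-low and 773 ± 86.2 CPM over LAG-3-high libraries (n = 5 each, log2 fold change -2.06 and -2.94, edgeR adjusted p = 0.000174 and 3.51e-06). Siglech, Sall1 (a transcription factor of microglial identity) and Gpr34 were lower in both, with log2 fold changes of -1.75, -1.83 and -1.49 in LAG-3-low and -2.26, -2.21 and -1.49 in LAG-3-high microglia. Among immediate targets, Klf10, a TGF-beta-inducible transcription factor, was at 55.0 ± 12.2 CPM in LAG-3-low against 3.79 ± 3.08 CPM in WT (log2 fold change 3.86, adjusted p = 0.00137), and Id2, an inhibitor of helix-loop-helix factors, at 136 ± 28.4 against 53.7 ± 18.2 CPM (1.34, adjusted p = 0.00334). Over all 64 genes, of which 52 were tested, 9 were higher and 11 lower in LAG-3-low than WT, and 10 and 11 in LAG-3-high.

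Between the fractions, 2 of the 52 were called, a share near the 3.49% of all genes, and both were lower in LAG-3-high. Tmem119, a surface marker of microglia, stood at 504 ± 58.9 against 1232 ± 362 CPM (SD, n = 5 each, log2 fold change -1.29, SE 0.33, edgeR adjusted p = 0.0477), and Slc2a5, the microglial fructose transporter, at 34.7 ± 12.99 against 107 ± 35.1 CPM (-1.63, SE 0.34, adjusted p = 0.0157). Both are on the list of TGF-beta-dependent microglial genes. Against WT, LAG-3-high microglia also had less of both, at -2.40 and -3.43.

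From P120 to P140 in SOD1G93A/LAG-3+/+ microglia, 6 of the 53 further genes tested rose and 17 fell, beside 11.9% and 15.5% of all genes. Among those that fell were 6 of 8 intracellular mediators and 6 of 11 inhibitors, with Ep300, a SMAD coactivator, from 64.9 ± 4.18 to 17.3 ± 2.35 CPM (n = 3 each, log2 fold change -1.91, edgeR adjusted p = 0.00816) and Smurf1, a ubiquitin ligase that acts on the receptors, from 65.8 ± 2.51 to 6.02 ± 2.22 CPM (-3.45, adjusted p = 0.00820). Another 3 of the 11 inhibitors rose, and of the 8 immediate targets 1 rose, with a positive log2 fold change in 8 of 8 and a median of 0.92. The TGF-beta-dependent microglial genes were divided, 2 of 11 called higher and 2 lower, with a median of 0.44 beside -0.22 over all genes. The co-receptor Eng fell by 3.34 on the log2 scale, the integrin subunit Itgav fell by 2.01, the phagocytic receptor Mertk fell by 1.91 and Sall1 fell by 1.71. At P140, 6 of 53 were higher and 2 lower in SOD1G93A/LAG-3-/- than in SOD1G93A/LAG-3+/+, and Eng (2.34, adjusted p = 0.0314), Mertk (1.71, adjusted p = 0.0293), Itgav (1.33, adjusted p = 0.0411) and Sall1 (1.12, adjusted p = 0.0705) were among the higher ones, with Trim33 (1.38) and the coactivator Crebbp (1.32). Sall1 and Mertk were the 2 of 11 TGF-beta-dependent microglial genes called there, and the median of that list was -0.35, with 4 of 11 positive. Against 6 and 2 of 53, the shares of all genes were 7.22% higher and 10.2% in either direction. Without replicate 1 of SOD1G93A/LAG-3-/-, 12 of 54 were higher and 4 lower, beside 11.9% and 8.29% of all genes, with Eng at 2.69 (adjusted p = 0.00294), Mertk at 2.02 (0.000644), Itgav at 1.55 (0.00690), Sall1 at 1.26 (0.0362), Trim33 at 1.58 (0.0222) and Crebbp at 1.68 (0.00370). The TGF-beta-dependent microglial genes were then 2 higher and 3 lower of 11. With all libraries, none of the 53 was called at P120, from P120 to P140 in LAG-3-/- microglia, or for the interaction.

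**Figure D4:**
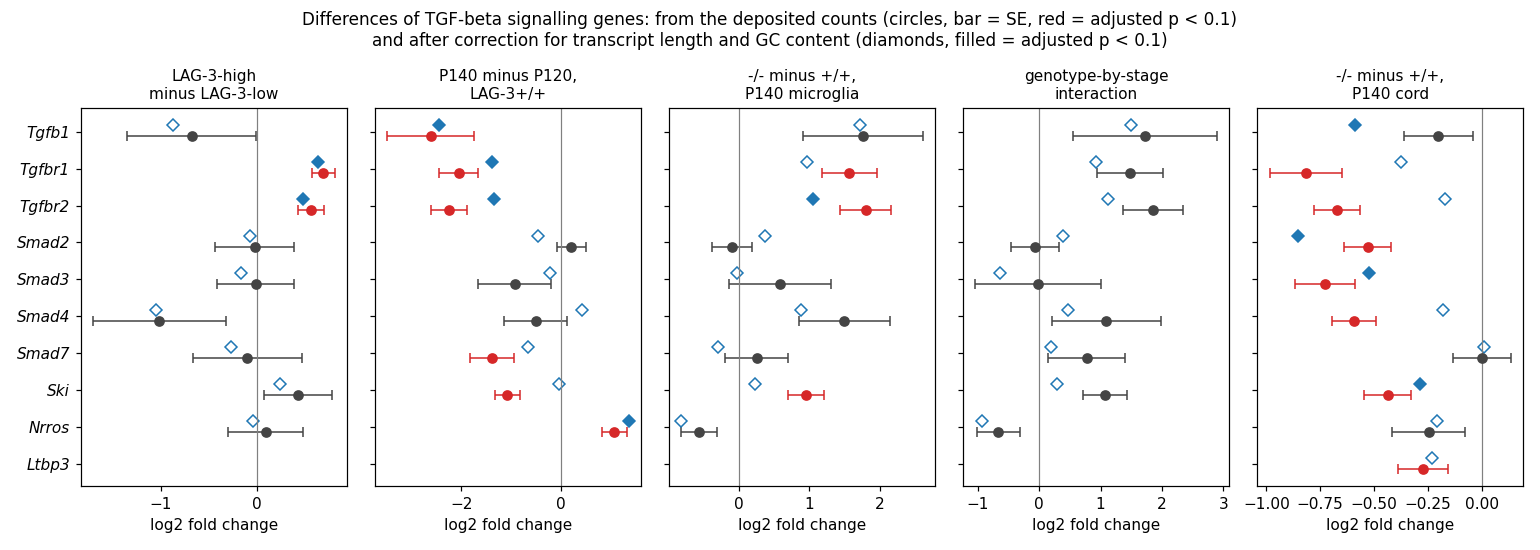
Log2 fold change of each member in 5 comparisons, from the deposited counts (circles, with SE bars, red where edgeR's adjusted p is below 0.1) and with offsets for length and GC content (diamonds, filled where the adjusted p is below 0.1). Ltbp3 is drawn for the cord only because of its low counts in microglia. The receptors lie below 0 from P120 to P140 and in the cord, and above 0 between genotypes in P140 microglia. Their diamonds lie closer to 0 than their circles in all 5 comparisons.

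In P140 spinal cord, both receptors, Smad2, Smad3, Smad4, Ski and Ltbp3 were lower in SOD1G93A/LAG-3-/- than in SOD1G93A/LAG-3+/+ mice, each by a log2 fold change under 1 in size, and Tgfb1, Smad7 and Nrros did not pass the threshold. Offsets for length and GC content ended 4 of these 7 calls. By the full rule with a log2 fold change above 1, 0 of 10 members were called in edgeR, beside 7.52% of all genes. DESeq2 called 0 as well, and its share of all genes is not given here. Without the minimum fold, 7 of 10 were lower, beside 23.9% of all genes, and the same number had an unadjusted p below 0.05, beside 47.7% of all genes. The members' median log2 fold change was -0.48, beside 0.00 over all genes.

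Tgfbr2 measured 76.6, 63.5 and 75.2 CPM in LAG-3+/+ and 48.6, 43.4 and 43.2 CPM in LAG-3-/- cord (log2 fold change -0.67, SE 0.11, edgeR adjusted p = 0.000959). Tgfbr1 measured 124, 101 and 132 CPM against 85.5, 53.2 and 64.6 CPM (-0.82, SE 0.17, adjusted p = 0.00411). Neither receptor overlapped between genotypes. Smad4 was at 40.3, 42.9 and 41.4 against 26.9, 25.8 and 29.8 CPM (-0.59, SE 0.10, adjusted p = 0.00134), Smad3 at 43.8, 33.2 and 42.4 against 27.5, 20.9 and 23.8 CPM (-0.73, SE 0.14, adjusted p = 0.00217), and Smad2 at 33.4, 38.5 and 38.5 against 23.6, 26.7 and 26.1 CPM (-0.53, SE 0.11, adjusted p = 0.00321). The genotypes did not overlap for these 3 SMADs either. The share of all genes without overlap was not computed, and 47.7% of all genes had an unadjusted p below 0.05 in edgeR. Ski was at 144, 132 and 147 against 105, 95.1 and 113 CPM (-0.44, SE 0.11, adjusted p = 0.00851), and Ltbp3 at 130, 104 and 106 against 92.1, 89.8 and 99.4 CPM (-0.27, SE 0.12, adjusted p = 0.0822).

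Tgfb1, Smad7 and Nrros were the 3 members that did not pass. Tgfb1 stood at 27.0, 19.8 and 22.5 against 24.7, 17.0 and 18.7 CPM (edgeR adjusted p = 0.353), Smad7 at 47.5, 46.4 and 48.5 against 53.3, 37.1 and 52.6 CPM (adjusted p = 0.984), and Nrros at 8.57, 8.09 and 10.3 against 8.75, 6.63 and 7.46 CPM (adjusted p = 0.278). In each of these genes the genotypes overlapped.

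**Figure D5:**
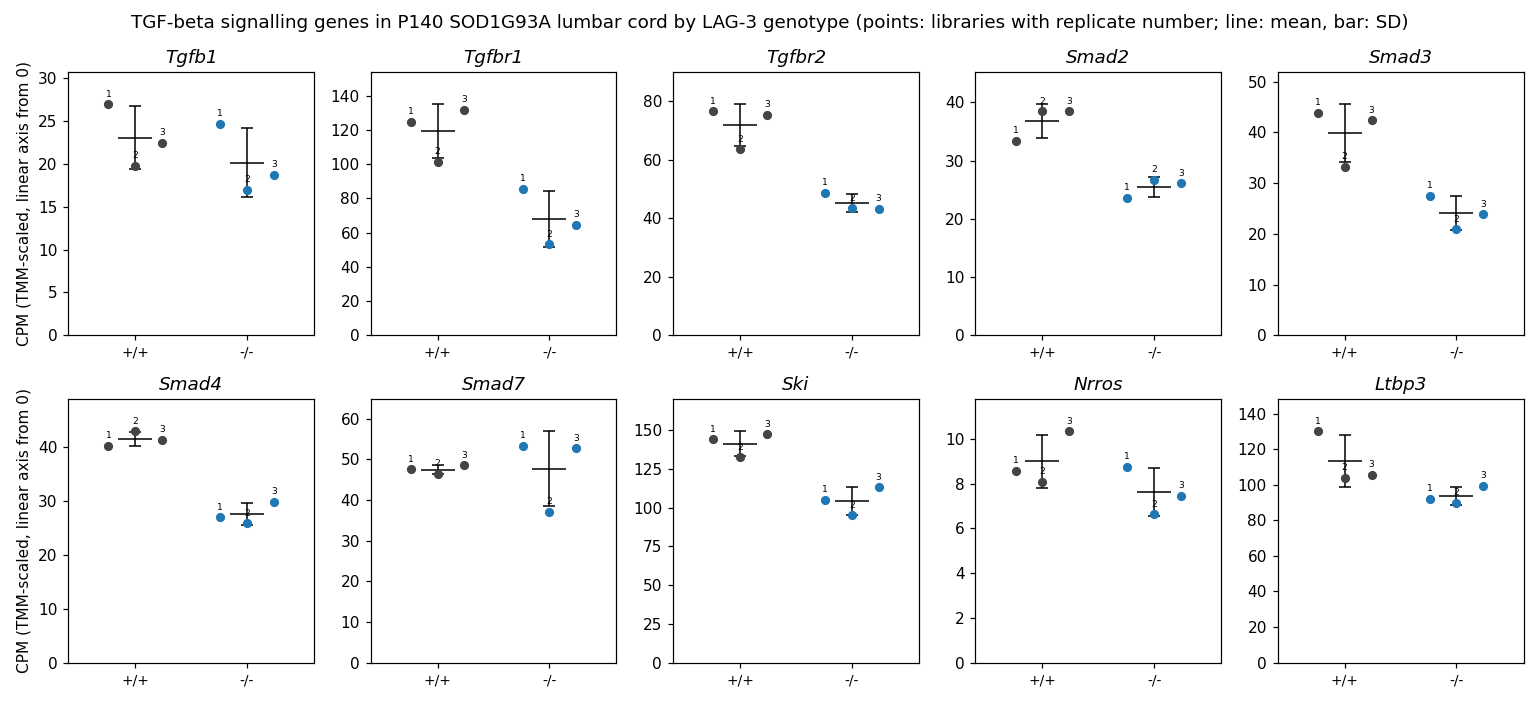
Level of each of the 10 members (CPM, linear axes from 0) in P140 spinal cord of the SOD1G93A/LAG-3+/+ and the SOD1G93A/LAG-3-/- genotype. Points are libraries marked with their replicate number, lines are means and bars are SDs (n = 3). The genotypes do not overlap for Tgfbr1, Tgfbr2, Smad2, Smad3, Smad4, Ski and Ltbp3. The share of all genes without overlap was not computed.

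In bulk cord, fewer cells of a type and less RNA per cell cannot be told apart. Summed microglia markers were 1159 to 1674 CPM in LAG-3-/- and 1521 to 1983 CPM in LAG-3+/+ cord, astrocyte markers 8493 to 13333 against 13486 to 15420 CPM, and oligodendrocyte markers 23891 to 33339 against 16922 to 18465 CPM. Monocyte markers were 102 to 117 against 176 to 228 CPM and endothelial and pericyte markers 192 to 200 against 234 to 262 CPM. Of these lists, microglia markers overlapped between the genotypes and the others did not. The part of these cell types was not tested. Per 1000 CPM of summed microglia markers, Tgfbr1 stood at 47.8 ± 2.85 in LAG-3-/- against 65.6 ± 2.49 in LAG-3+/+ cord, Tgfbr2 at 32.5 ± 4.40 against 39.7 ± 1.82 and Smad3 at 17.2 ± 0.790 against 21.9 ± 0.176 (SD, n = 3), without overlap. On this scale the genotypes overlapped for Smad4 (19.9 ± 3.36 against 23.3 ± 4.32), Ski (75.3 ± 10.9 against 78.5 ± 7.59), Smad2 (18.6 ± 4.47 against 20.6 ± 4.28) and Ltbp3 (68.0 ± 11.6 against 62.7 ± 7.49). Nrros stood at 5.43 ± 0.256 against 4.98 ± 0.571, and Smad7 at 33.9 ± 3.40 against 26.4 ± 3.53, higher without overlap. Transcript length and level relative to the gene's mean over all cord libraries correlated at 0.287 to 0.419 in LAG-3+/+ and -0.436 to -0.221 in LAG-3-/- libraries. After offsets for length and GC content, Tgfbr1 was at -0.37 (edgeR adjusted p = 0.212), Tgfbr2 at -0.17 (adjusted p = 0.368), Smad4 at -0.18 (adjusted p = 0.183) and Ltbp3 at -0.23 (adjusted p = 0.193), and no longer passed. Smad3 at -0.53 (adjusted p = 0.0325), Ski at -0.28 (adjusted p = 0.0663) and Smad2 at -0.85 (adjusted p = 0.00107) did pass, as did Tgfb1 at -0.59 (adjusted p = 0.0311). The value of Smad2 used its canonical transcript of 1645 bases, while its longest annotated one has 9595.

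Of the 64 further pathway genes, 62 were tested in the cord, where 1 was called higher and 3 lower, a share near the 7.52% of all genes. Itgb8, an integrin subunit that activates latent TGF-beta, stood at 136 ± 16.2 against 287 ± 16.1 CPM (SD, n = 3, log2 fold change -1.08, SE 0.12, edgeR adjusted p = 0.000259), Ep300 at 36.4 ± 5.13 against 74.6 ± 2.24 CPM (-1.03, SE 0.11, adjusted p = 0.000248) and the activin receptor gene Acvr2b at 2.02 ± 0.347 against 4.29 ± 0.895 CPM (-1.08, SE 0.24, adjusted p = 0.00441). Id1, an immediate target, was the gene called higher, at 14.3 ± 2.16 against 6.59 ± 0.855 CPM (1.11, SE 0.16, adjusted p = 0.000653). Without the minimum fold, 5 were higher and 30 lower, the latter beside 23.9% of all genes.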

How the data were processed

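RNA-seq of 32 libraries was used, from LAG-3-sorted microglia, microglia by stage and genotype, and P140 spinal cord. The authors trimmed reads with Trim Galore 0.6.7, quantified transcripts with Salmon 1.9.0 against GRCm39 and summed them per Ensembl gene with tximport under R 4.2.1, and the deposited tables hold these estimated counts, not normalized. The annotation release was not given in the sources used here. Microglial libraries used the SMART-seq mRNA HT LP kit and cord libraries the NEBNext Ultra II Directional kit per the paper's methods, whereas the labels give the first kit for the cord too.

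Estimated counts were rounded to whole numbers and each table was fitted separately in edgeR 4.0.16 under R 4.3.3 (filterByExpr with a minimum count of 10 and a minimum total of 15, TMM factors, robust quasi-likelihood test, Benjamini-Hochberg adjustment over all genes tested). A gene counted as called when its adjusted p was below 0.1 and, in the sorted and cord tables only, its log2 fold change exceeded 1 in size. The stage table was fitted with a model of genotype, stage and their interaction. CPM are counts scaled to a common library size with TMM factors, and correlations used log2 CPM with a prior count of 2. Names, lengths and coordinates are those of GENCODE vM39, from which 71, 66 and 71 identifiers were absent, and the windows before transcription starts are RefSeq's for GRCm38.p6.

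The members and lists were chosen with earlier results of these data known. All 10 members are named, with at most 6 called genes of the other pathway lists per comparison, taken by smallest p, and the 3 genes most like Tgfb1 and Tgfbr1. The summed levels of marker lists (microglia, neutrophils, monocytes, border macrophages, lymphocytes, endothelial cells and pericytes, astrocytes, oligodendrocytes, neurons) were set beside the results. Alternatives were DESeq2 1.42.0, other size factors, no TMM factors, no low-count filter, no minimum fold, neutrophil markers removed, offsets for transcript length and GC content, sex as a covariate, only the groups compared, replicate numbers as a block and each library left out; scaling to summed microglia markers was added after the data were seen. The fits were tested on simulated data. Counts give counting precision only, and no library was left out of the reported values.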

Additional observations from a re-analysis of the deposited data

Results flagged for a closer look

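Within each group of 4 or 5 LAG-3-sorted libraries, the highest and lowest library of each member were compared with their nearest neighbour by Dixon's criterion, which chance meets in about 1 in 20 groups. Of 30 group ranges, 2 had a library apart, both of Ltbp3. In WT, replicate 1 stood at 0.0510 CPM (1 count) with the other libraries at 0, and in LAG-3-low microglia replicate 1 stood at 5.98 CPM (130 counts), with the nearest library at 1.17 CPM. The first rests on a single count. Groups of 3 libraries were not examined in this way.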

How the results depend on the processing

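Of 90 pairs of a member and a comparison, 28 had an adjusted p below 0.1, and 1 of these changed sign under an alternative: Tgfbr1 in LAG-3-low against WT, at 0.29 with libraries scaled to microglia markers. Of the 62 others 30 changed sign under some alternative. Of 540 values of single members under an alternative, 441 kept direction and side of the threshold, 89 lost the call, 9 gained it and 1 was the reversal above; the cause was not tested.

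Numbers of called members varied as follows. Without the minimum fold, LAG-3-high against LAG-3-low gave 2, LAG-3-high against WT 5 and the cord 7. LAG-3-low against WT gave 1 with sex as a covariate (20.0% of all genes called) and 1 with only the groups compared (11.1%), where Ltbp3 was not tested. SOD1G93A/LAG-3-/- against SOD1G93A/LAG-3+/+ at P140 gave 5 by DESeq2 (22.9% of all genes) and 1 after length and GC correction (5.13%). It gave 0 with only the groups compared (0%), and the cause was not tested. The same setting gave 6 from P120 to P140 in LAG-3+/+ (29.7% of all genes). P120 to P140 in LAG-3+/+ gave 4 after length and GC correction (19.1% of all genes). DESeq2 gave 1 from P120 to P140 in LAG-3-/- (2.41% of all genes) and 1 for the interaction (6.97%). Under both other scalings all 7 calls from P120 to P140 were again 7 in number, while the median of all genes there was -0.70 and -0.69, against -0.22 under TMM.

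With 1 library left out in turn, called members ranged from 0 to 0 for LAG-3-high against LAG-3-low (2.29% to 3.32% of all genes). Against WT they ranged from 1 to 3 for LAG-3-low (17.5% to 33.2%) and 2 to 3 for LAG-3-high (22.1% to 35.0%). Between genotypes they ranged from 0 to 0 at P120 (0.00492% to 0.0148%) and 0 to 4 at P140 (0.470% to 20.2%). From P120 to P140 they ranged from 4 to 7 in LAG-3+/+ (16.0% to 25.6%) and 0 to 0 in LAG-3-/- (0% to 0.0197%). The interaction gave 0 to 4 and the cord 0 to 1, for which the shares are not given here. The 1 in the cord was Tgfbr1 at -1.02 without LAG-3-/- replicate 1, where Tgfb1 also passed the adjusted p at -0.37 (0.0647). LAG-3-low against WT gave 1 without WT replicate 3 or 4 or LAG-3-low replicate 1, P140 genotypes gave 1 without LAG-3+/+ replicate 3, and P120 to P140 gave 4 without any 1 of the P120 libraries. Tgfbr1 lost its adjusted p below 0.1 in LAG-3-low against WT without WT replicate 1 or 2 or LAG-3-low replicate 1, 2, 3 or 4 (0.113 to 0.159), and in LAG-3-high against WT without WT replicate 1 (0.112) or LAG-3-high replicate 2 (0.123).

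Deviations of same-numbered libraries correlated across genes at -0.119 to 0.0674. For the sorted SOD1G93A fractions, replicates 2, 4 and 5 were at 0.0666, 0.0674 and 0.00940. Their highest values with another number were -0.00228, 0.0249 and 0.00712. Replicates 1 and 3 were at 0.0195 and -0.00134, below their highest with another number, 0.0333 and 0.0352. Values this small and mixed cannot decide whether the fractions shared animals. With replicate numbers as a block, called members were 0 for LAG-3-high against LAG-3-low, beside 1.08% of all genes. Against WT they were 0 for LAG-3-low (0% of all genes) and 0 for LAG-3-high (1.46%). Between genotypes they were 0 at P120 (0.00536%) and 1 at P140 (4.36%). From P120 to P140 they were 7 in LAG-3+/+ (23.7%) and 0 in LAG-3-/- (0%). The interaction gave 0 and the cord 0, for which the shares of all genes are not given here. Depth limits Ltbp3 in microglia, at or under 3 counts in many libraries, and Tgfb1 at P140.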
